A study of Mus musculus with 9 samples.

Results

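Circular RNAs (circRNAs) were compared between preconditioned, injured livers and sham livers of mice. The comparison took 6 of the 9 arrays, 3 from the ischemic preconditioning (IPC) group and 3 from the sham group. Of the 14236 circRNA probes on the array, 10536 were kept, because the scanner software had marked them as well above background, here called detected, on 3 or more of the 9 arrays. Of these, 10534 had a value in both groups and were tested. All mice were male C57BL/6, the study's methods give no age, and each array came from 1 liver. In sham mice the portal vein and hepatic artery were freed but not clipped. In IPC mice, the vessels were first closed for 10 min and opened for 10 min. After that came 1 h of ischemia to a part of the liver and 6 h of reperfusion. The study's methods do not say which part of the liver was sampled. The remaining 3 arrays came from mice with ischemia-reperfusion injury (IRI), that is, the same 1 h and 6 h without preconditioning. IPC and sham therefore differed by both the preconditioning and the injury, and the effects of these steps cannot be told apart in this comparison.

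CircRNAs are covalently closed RNAs, made when a splice donor is joined to an acceptor upstream of it. They have no free ends, so the exonuclease RNase R, used here before labeling, digests linear RNAs and spares circRNAs. Some circRNAs bind microRNAs or proteins, and most have no known role. In hepatic IRI, the return of blood after ischemia injures hepatocytes and sinusoidal endothelium through oxygen radicals, failing microcirculation and inflammation, and a short ischemic episode beforehand is known to lessen that injury. RNA was extracted from liver tissue and not from separated cells, so fewer cells of a type and less of a circRNA per cell cannot be told apart.

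The probes carry vendor identifiers, and no table used here pairs them with circRNA names, host genes or sequences. Results are therefore given for probes. For the same reason, markers of hepatocytes, endothelial cells, Kupffer cells or neutrophils could not be read from the circRNA probes, and the liver label was not checked against them.

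Preconditioned, injured livers held 155 probes that were higher than in sham livers and 92 that were lower, at the study's own criteria of a fold change of at least 1.5 and an unadjusted P under 0.05 in limma. The higher probes made up 1.47% of the 10534 tested and the lower ones 0.873%, together 2.34%. After Benjamini-Hochberg adjustment over all probes, limma left 0 probes under 0.05, with a smallest adjusted P of 0.150. An unadjusted P under 0.05 was found for 253 probes, or 2.4% of those tested. With no difference between the groups, this threshold nominally passes a share of 0.05 of the probes, and 2.4% is below that. The methods' t-test on the same values also left 0 probes after adjustment, with 300 at an unadjusted P under 0.05. A probe called altered below met the unadjusted criteria only. The counts moved with single arrays and with how the signal was derived. They were 315 increased and 225 decreased without IPC replicate 3, 89 increased without IPC replicate 2, 57 decreased without IPC replicate 1, and 241 and 100 increased without sham replicates 2 and 3. With normexp correction of the median spot signals, in place of the processed signals, 24 probes were increased and 11 decreased, and on the values that the authors normalized 66 and 21.

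The arrays were read in 2 scans, which cut across the groups. The sham replicate 1 and IPC replicate 3 arrays were in scan 2, together with 1 IRI array, and the other 4 sham and IPC arrays were in scan 1. Detection followed the scan. On the sham arrays of scan 1, 52.7% and 51.8% of the circRNA probes were detected, against 48.9% and 48.0% on the IPC arrays. In scan 2, the sham array had 80.6% and the IPC array 77.3%. Within each scan, each IPC array thus had fewer detected probes than each sham array, with an IPC minus sham difference of -539.5 probes (means of 6899 and 7439) in scan 1 and of -476 probes in scan 2. Over both scans, 8785 ± 2333 probes (SD, n = 3) were detected in sham livers and 8266 ± 2369 in IPC livers. These SDs contain the difference between the scans. An exact permutation test over the 6 arrays, which takes no account of the scan, gave a two-sided p = 0.5, where 0.1 is the smallest p that 3 against 3 arrays allow. Without sham replicate 1, which leaves sham with scan 1 arrays alone, IPC had 828 probes more.

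**Figure D1:**
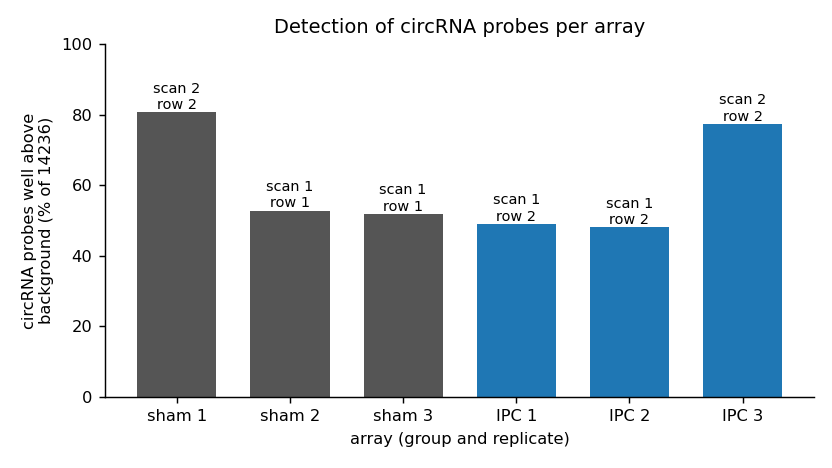
Percentage of the 14236 circRNA probes detected, that is, marked well above background (vertical axis), on each sham and IPC array, with its scan and its row on the slide. The 2 scan 2 arrays, at 80.6% and 77.3%, stand above the 4 scan 1 arrays, at 48.0% to 52.7%, and each scan holds arrays of both groups.

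No circRNA probe was detected on all arrays of one group and on none of the other. Detection on all 6 arrays was found for 6208 of the 14236 probes, and 2503 were detected on none of the 6. The count was 0 in both directions. A further 43 probes were detected on all 3 IPC arrays and 1 sham array, and that sham array was the scan 2 array in each of the 43. Likewise, 268 probes were detected on all 3 sham arrays and 1 IPC array, again the scan 2 array each time. Among the 43 probes, 17 were altered and higher in IPC livers (1.47% of all probes tested), and among the 268 probes, 21 were altered and lower (0.873% of all). Both sets were picked for detection that differs in that direction, so nothing is read from these counts. Within scan 1 alone, 45 probes were detected on both IPC arrays and no sham array, and 268 on both sham arrays and no IPC array.

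Array-to-array likeness also followed the scan more than the group. Over the 10536 probes kept, the 2 scan 2 arrays, 1 sham and 1 IPC, were the closest pair of the 6 (Pearson's r = 0.981 across probes, which are not independent replicates). Pairs from the same scan but different groups had r from 0.952 to 0.981, and pairs from the same group but different scans had r from 0.916 to 0.943. For a typical probe, the scan 2 value differed from the scan 1 mean by 0.40 (log2) in sham livers and by 0.48 in IPC livers, as medians of unsigned differences. The typical IPC vs. sham difference was smaller, at 0.25 within scan 1 and 0.23 within scan 2.

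Most differences between IPC and sham livers were small. The median log2 difference (IPC minus sham) over all probes tested was -0.03, and the middle 90% lay between -0.55 and 0.56. The median standard error was 0.33 on the same scale. A difference of at least 1.5-fold was reached by 913 probes, or 8.67%. Thus the 247 altered probes were a minority of those with a difference of this size.

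The 155 increased probes rose by a median of 2.0-fold, from 1.51-fold to 6.34-fold, and 77 of them rose at least 2-fold. The 92 decreased probes fell by a median of 1.82-fold, and 28 of them fell at least 2-fold, up to 5.90-fold. Most of these folds include signals that were not detected, since 87 of the 155 and 75 of the 92 probes were not detected on all 6 arrays. The increased probe with the 6.34-fold change was detected on 1 sham array, and the decreased one with the 5.90-fold change on 1 IPC array. For 3 increased probes no sham array and for 4 decreased probes no IPC array was detected. On the values that the authors normalized, the median difference was 0.45 (log2) for the 155 and -0.29 for the 92, and 58 and 15 of them passed 1.5-fold. Sham and IPC arrays did not overlap for 122 of the increased and 67 of the decreased probes. These probes were called on the same 6 arrays, which favors a lack of overlap, so nothing is read from these counts. Over all 10504 probes with a value on each of the 6 arrays, 6.09% had arrays that did not overlap, 3.07% with IPC higher and 3.03% with IPC lower. Random group labels, 3 against 3 arrays, would give a share of 0.1.

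Altered probes were most frequent among dim probes, and decreased probes were dimmer than increased ones. The median signal, as a mean log2 value over the 9 arrays, was 4.37 for increased and 3.65 for decreased probes, against 4.87 for all probes tested. Probes were split by their mean signal into 4 groups of near-equal size. In the dimmest group (mean log2 signal from 1.45 to 3.64), 51 were increased and 45 decreased, which is 3.64% of that group. In the brightest group (6.39 to 17.5), 31 were increased and 6 decreased, which is 1.4%. The median standard error of the difference was 0.45 in the dimmest group and 0.30 in the brightest. Whether signal level had a part in the split was not tested.

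**Figure D2:**
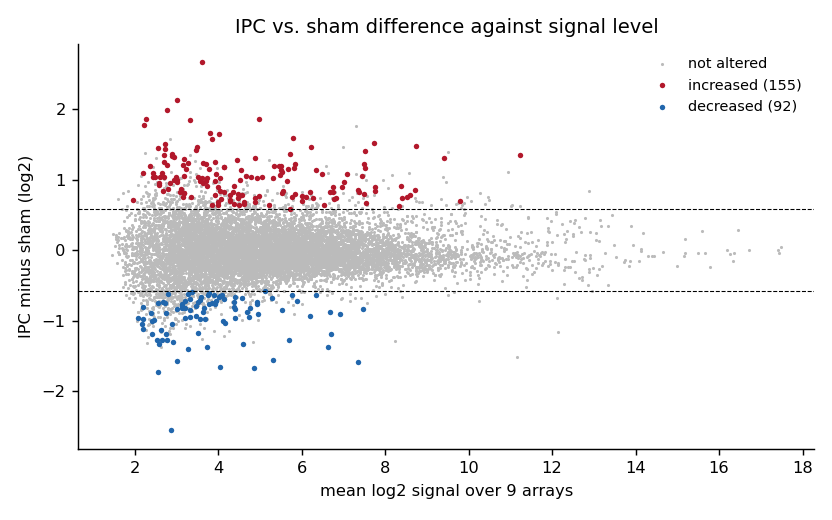
Log2 difference between IPC and sham livers (vertical axis) against the mean log2 signal over the 9 arrays (horizontal axis) for each circRNA probe tested, with the 155 increased probes in red, the 92 decreased probes in blue and dashed lines at 1.5-fold. Increased probes spread over more of the signal range than decreased ones, whose median signal was 3.65.

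Changes within each scan were taken next. In scan 1, with 2 sham and 2 IPC arrays, 241 probes were increased (2.29% of 10526) and 229 were decreased (2.18%), together 4.47%. There, limma gave 470 probes, or 4.47%, an unadjusted P under 0.05, also below the nominal share of 0.05. The smallest Benjamini-Hochberg adjusted P from limma within scan 1 was 0.120. On the slide of scan 1, both sham arrays lay in row 1 and both IPC arrays in row 2, so slide row and group cannot be told apart there. In scan 2, with 1 array a group and hence no test, 687 probes were at least 1.5-fold higher on the IPC array (6.52% of 10531) and 632 were at least 1.5-fold lower (6%), together 12.5%. Both scan 2 arrays lay in row 2.

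The scan 2 pair was not used for the scan 1 calls, so it shows whether a change seen in scan 1 had the same direction in another pair of livers. Of the 469 scan 1 calls with a scan 2 value, 273 (58.2%) had the same direction, against 53.5% over all 10523 probes with values in both scans. Among the probes increased in scan 1, 151 of 240 (62.9%) were also higher on the IPC array of scan 2, where 49.1% of all probes were higher. For the probes decreased in scan 1, 122 of 229 (53.3%) were also lower, where 50.9% of all probes were lower. On these signals the decreased probes of scan 1 were close to the share of all probes. With 75th percentile scaling, 98 of 178 were also lower, where 5417 of all 10523 probes were lower. The count was 50 of 70 on the values that the authors normalized (5244 of all 10536 lower). On median signals without background correction it was 39 of 51 (5285 of all 10523 lower). The median scan 2 difference was 0.22 for probes increased in scan 1 and -0.05 for those decreased, against scan 1 medians of 1.09 and -1.11. In the other direction, 739 of the 1317 probes (56.1%) past 1.5-fold on the scan 2 pair had the same sign in scan 1.

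The share was higher where the signal was clear. Of the scan 1 calls, 112 were detected on all 6 arrays, and 80 of these (71.4%) had the same direction in scan 2, against 54.9% of all 6195 probes detected that way. Here 63 of 89 increased probes and 17 of 23 decreased probes kept their direction. Of all probes detected that way, 47.9% were higher and 52.1% lower on the IPC array of scan 2. The scan 2 difference was at least 1.5-fold the same way for 35 of the 112 probes and at least 1.5-fold the opposite way for 5. The median scan 2 differences of the increased and decreased probes were 0.32 and -0.30. Across all 6195 probes, the differences within the 2 scans were only loosely related (Pearson's r = 0.15, Spearman's rho = 0.12). Each scan has its own sham and IPC livers, but all 9 arrays share the normalization and the probes.

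**Figure D3:**
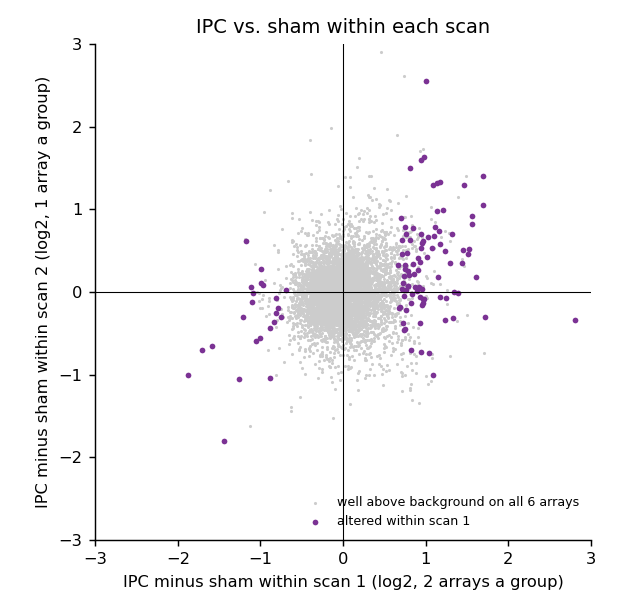
Log2 difference between IPC and sham livers within scan 1 (horizontal axis, 2 arrays a group) and within scan 2 (vertical axis, 1 array a group) for the probes detected on all 6 arrays, with the 112 probes altered within scan 1 in purple. Of these, 80 lie in the lower left or upper right area, where both scans have the same sign.

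With the scan as a block in limma, the altered probes numbered 252 increased (2.39%) and 186 decreased (1.77%), together 4.16%. They included all 155 increased and all 92 decreased probes of the fit without it. Both groups are spread over the scans alike, so for probes with all values the block changes only the error, not the difference. That all were kept is thus no separate support. An unadjusted P under 0.05 was found for 551 probes, or 5.23%, near the nominal share of 0.05. None passed the Benjamini-Hochberg adjustment, and the smallest adjusted P was 0.110. With both the scan and the slide row as blocks, 201 probes were increased (1.91%) and 168 decreased (1.59%), together 3.5%. In that fit, 63 of the 155 increased and 27 of the 92 decreased probes were still altered, 372 probes had an unadjusted P under 0.05, and the smallest adjusted P was 0.586.

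Of the 247 altered probes, 70 also met further conditions, namely detection on all 6 arrays and sham and IPC arrays that did not overlap. Overlap is read from the same 6 values as the call, so its absence is no separate support. Detection on all 6 arrays left 68 increased and 17 decreased probes, or 1.1% and 0.274% of the 6206 tested probes so detected, together 1.37%. Of these, 55 increased and 15 decreased probes had no overlap, together 1.13% of the 6206. Because the arrays did not overlap, the difference had the same sign within both scans for all 70. The 55 probes rose by a median of 1.81-fold (1.51 to 3.02), and 22 rose at least 2-fold. The 15 probes fell by a median of 1.84-fold (1.5 to 3.0), and 5 fell at least 2-fold. With the scan and the slide row as blocks, 29 of the 55 and 7 of the 15 were still altered.

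These 70 probes were chosen on these arrays, so their levels are a description. Relative to the sham mean of each probe, the median over the 55 increased probes was 0.86, 1.08 and 0.75 (log2) on IPC replicates 1, 2 and 3. On sham replicates 1, 2 and 3 it was -0.11, 0.33 and -0.16. The IPC array of scan 2 was thus the lowest of the 3, and sham replicate 2 the highest of the sham arrays. Over the 15 decreased probes, the medians were -1.09, -0.63 and -0.91 on the IPC arrays and -0.17, 0.25 and -0.11 on the sham arrays.

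The IRI arrays had a part in the choice too, through the detection filter and the spread that limma estimated on all 9 arrays, and their difference from sham rests on the same 3 sham arrays. The median IRI minus sham difference was 0.60 over the 55 increased probes, beside 0.86 for IPC minus sham. For single probes it ran from -0.60 to 1.53. Over the 15 decreased probes it was -0.88, beside -0.88 for IPC minus sham, and it was below 0 for each of them, from -1.51 to -0.20. On IRI replicates 1, 2 and 3, the medians relative to sham were 0.68, 0.33 and 0.76 over the increased and -0.50, -0.80 and -0.97 over the decreased probes.

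**Figure D4:**
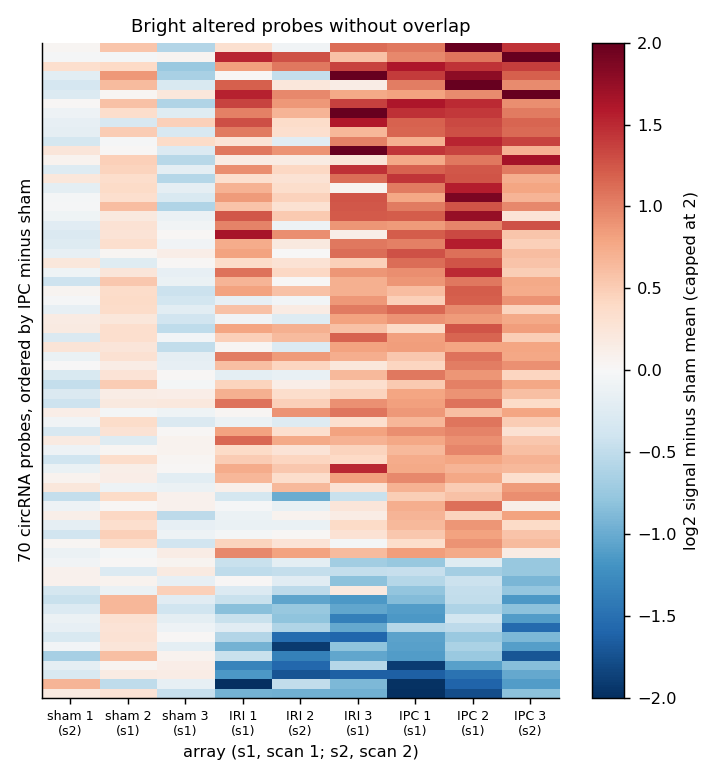
Log2 signal relative to the sham mean (color, capped at 2 in either direction) of the 70 altered probes that were detected on all 6 sham and IPC arrays and did not overlap, in rows ordered by the IPC minus sham difference, on the 9 arrays (columns, with the scan of each). The upper 55 rows are higher and the lower 15 lower on each IPC array than on any sham array, which is how they were chosen.

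The probes with the largest differences among the 70 are given by identifier, 2 in each direction. All levels given for them are log2 signals after quantile normalization. For each of the 4, the Benjamini-Hochberg adjusted P from limma was 1.00, so they rest on the unadjusted P.

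ASCRP4002555 had the largest increase among the 70. Its signal was 5.15, 5.67 and 4.52 in sham replicates 1, 2 and 3, and 6.17, 7.40 and 6.55 in IPC replicates 1, 2 and 3. The lowest IPC array was 0.50 above the highest sham array. The probe was 3.02-fold higher in IPC livers, a log2 difference of 1.59 (standard error 0.44), at an unadjusted P of 0.00455. The difference was 1.69 within scan 1 and 1.40 within scan 2. It was 1.13 on the values the authors normalized and 0.81 with normexp. It was 1.20 with the scan and the slide row as blocks, where its unadjusted P of 0.0666 ended the call. On the IRI arrays the signal was 5.43, 5.04 and 6.23, so that 2 of the 3 were within the sham range, and IRI minus sham was 0.46.

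ASCRP4011700 was 2.87-fold higher in IPC livers. Its sham arrays lay close together at 6.82, 6.80 and 6.90, and its IPC arrays at 7.81, 7.91 and 9.37, so that the scan 2 array, IPC replicate 3, stood above the others. The log2 difference was 1.52 (standard error 0.42), at an unadjusted P of 0.00503. It was 1.01 within scan 1, 2.55 within scan 2 and 2.31 with the scan and the slide row as blocks. The IRI arrays were at 8.37, 8.12 and 7.42, each above each sham array, with an IRI minus sham difference of 1.13.

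ASCRP4009387 had the largest decrease among the 70, 3.0-fold lower in IPC livers. It was at 8.40, 8.49 and 7.75 on the sham arrays and at 6.05, 6.43 and 7.39 on the IPC arrays, where the scan 2 array was nearest to sham. The log2 difference was -1.59 (standard error 0.36), at an unadjusted P of 0.00130. It was -1.88 within scan 1, -1.01 within scan 2 and -1.35 with both blocks. The 3 IRI arrays, at 7.27, 7.24 and 7.24, lay below each sham array, and IRI minus sham was -0.96.

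ASCRP4008903 was 2.96-fold lower in IPC livers. Sham arrays were at 6.91, 5.71 and 6.05 and IPC arrays at 4.24, 4.63 and 5.10, with a gap of 0.61 between the groups. The log2 difference was -1.57 (standard error 0.46), at an unadjusted P of 0.00727. It was -1.45 within scan 1, -1.81 within scan 2 and -2.15 with both blocks, but -0.94 on the values the authors normalized and -0.63 with normexp. The IRI arrays were at 4.10, 5.73 and 5.33, which reached into the sham range, and only 2 of these 3 were detected. IRI minus sham was -1.17.

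**Figure D5:**
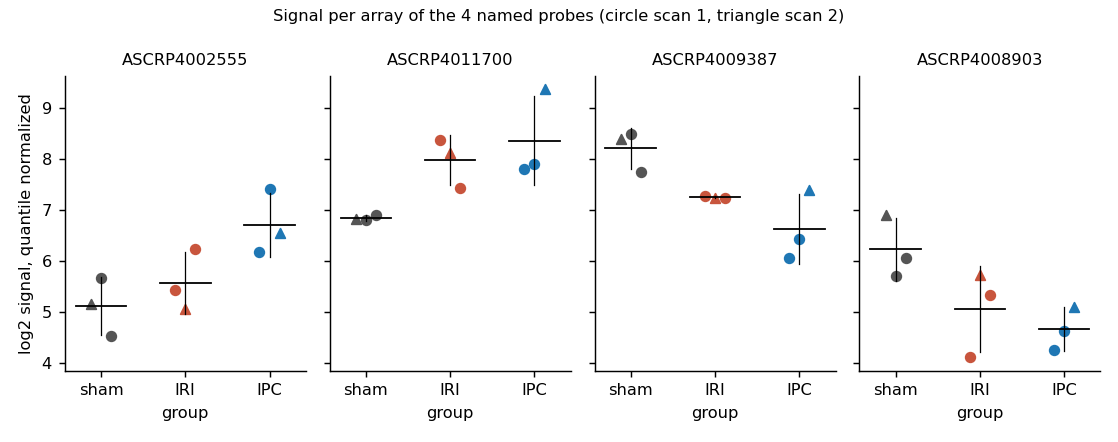
Log2 signal (vertical axis) of the 4 named circRNA probes on each sham, IRI and IPC array, with circles for scan 1, triangles for scan 2, horizontal bars for the mean of 3 arrays and vertical bars for 1 SD. For each probe the sham and IPC arrays do not overlap, with gaps that include 0.50 for ASCRP4002555 and 0.61 for ASCRP4008903.

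The other 53 increased probes of the 70 rose between 1.51-fold and 2.79-fold, and the other 13 decreased probes fell between 1.5-fold and 2.59-fold. In the values that the authors normalized themselves, all 70 probes had the same direction, as did 9109 of all 10534 probes tested, with a median difference of 0.68 (log2) for the 55 and -0.69 for the 15. A difference of at least 1.5-fold remained there for 39 of the 55 increased and 9 of the 15 decreased probes, and for 143 of all probes tested. These values come from the same arrays on which the 70 were chosen, so they are a description. Refitted on those values, limma called 66 probes increased and 21 decreased, so that increased probes made up 75.9% of those altered, against 62.8% on the processed signals.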

How the data were processed

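Liver tissue RNA, treated with RNase R, was hybridized to single-color arrays with 14236 circRNA probes. The authors deposited scanner output of Agilent Feature Extraction 11.0.1.1, whose processed signals are linear, background-corrected intensities, and a table of log2 values that they quantile normalized. Here, outlier-marked spots (128 over 9 arrays) were left out, intensities were log2 transformed and quantile normalized over 9 arrays, and probes well above background on at least 3 arrays were kept. Groups were compared with limma 3.58.1 (R 4.3.3) on all 9 arrays with no block (two-sided, 6 residual degrees of freedom, Benjamini-Hochberg over all probes). 0 circRNA spots were saturated. The number of arrays limits the precision, and P-values without a block measure the spread between livers and scans together. Scan came from the scanner headers and slide row from spot positions. Named probes were the 2 largest differences each way among altered probes detected on all 6 arrays, without overlap and with the same sign in both scans. Host-gene and marker lists could not be applied. Members, lists and alternatives were chosen with earlier results of these data known, and fits were tested on simulated data.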

Additional observations from a re-analysis of the deposited data

Results flagged for a closer look

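The arrays also carry vendor probes for linear mRNAs, which the circRNA comparison did not use, with 10 spots a probe. Of 50 such probes, 44 matched a RefSeq gene and 15 of these were well above background in all spots of the 6 arrays. Sham and IPC arrays did not overlap for 1 of these 15, Gpi1, glucose-6-phosphate isomerase of glycolysis, beside 6.09% of all circRNA probes, so this count is near the background. The Gpi1 signal was 4.74, 4.83 and 4.74 (log2) on the sham arrays and 5.71, 5.84 and 4.99 on the IPC arrays. The difference was 0.74, being 0.99 within scan 1 and 0.25 within scan 2 (exact permutation test, two-sided p = 0.1, the smallest possible, Benjamini-Hochberg adjusted 0.9 over 15 probes). On the IRI arrays it was 4.54, 4.66 and 5.87. Probes for Lhx1 and Olfr166, genes not known for adult liver, were as clearly above background in these arrays.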

How the results depend on the processing

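The counts of 155 increased and 92 decreased probes moved by less than 1.5 times with 75th percentile scaling, without the detection filter, with the looser positive-and-significant flag, with only the 6 arrays and with marked spots kept. Increased and decreased probes numbered 24 and 11 with normexp and 50 and 17 without correction, both from the spots' median signals rather than the processed ones, 66 and 21 on deposited values, and 82 and 22 on probes detected on all 9 arrays. The methods' t-test gave 100 and 47, and 36 and 7 on deposited values. A scan block gave 252 and 186, and scan 1 alone 241 and 229. Chosen after seeing the data, blocks for scan and slide row gave 201 and 168, a scan block on deposited values 84 and 29, and one on probes detected on all 9 arrays 137 and 36. The causes were not tested.

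Leaving out 1 array gave 89 (without IPC replicate 2) to 315 (without IPC replicate 3) increased probes and 57 (without IPC replicate 1) to 225 (without IPC replicate 3) decreased ones. Increased probes also numbered 241 without sham replicate 2 and 100 without sham replicate 3. Over 27 limma and t-test fits, the smallest adjusted p ran from 0.00287 to 1.00. It was under 0.05 in 2 fits, for 1 probe each: the methods' t-test on deposited values (0.00287) and limma without IRI replicate 2 (0.0480).

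The IPC minus sham difference in detected probes ran from -1886 (without IPC replicate 3) to 828 (without sham replicate 1), and was also above 0 without IPC replicate 1 (133) or IPC replicate 2 (197). Leaving out any of these 4 arrays makes the groups unequal in scan, which alone shifts this difference, and within each scan it was below 0. The share of scan 1 calls with the same direction in scan 2 (58.2%) was 61.1% with 75th percentile scaling. It was 73.0% on median signals without background correction, 70.6% on deposited values and 70.5% on probes detected on all 9 arrays. Probes detected in one group alone (0) became 10 with the looser flag and 313 within scan 1. The 4 named probes kept their direction in all 20 alternatives. Their choice for no overlap and the same sign in both scans largely fixed this, so nothing is read from it. Only ASCRP4002555 lost its call, with scan and slide row as blocks (1.20). The scan 2 value of ASCRP4011700 was 2.55 and that of ASCRP4009387 was -1.01.

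Deviations from the group means of same-numbered sham and IPC arrays had correlations of -0.38, 0.53 and -0.42. The pairs at -0.38 and -0.42 came from different scans, and the pair at 0.53 from scan 1. Differently numbered pairs from different scans were negative too, at -0.59 and -0.43. These values therefore cannot show whether replicate numbers pair the arrays. With the replicate number as a block, 117 probes were increased and 83 decreased, with a smallest adjusted p of 0.759. Dim probes, well above background on few arrays, limit what can be measured.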
